A study of Homo sapiens with 6 samples.

Results

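Kinesins are motor proteins that use ATP to move along, cross-link or take apart microtubules. One set of them builds the mitotic spindle, aligns chromosomes and completes cytokinesis, and its transcripts are known to peak late in the cell cycle. Another set carries vesicles, organelles and protein complexes through interphase cells, as lysosomes, endosomes and mitochondria are carried in macrophages. The kinesins described here were the protein-coding genes of the deposited table whose symbol begins with KIF and a digit or with KIFC, together with KIFAP3, the cargo-binding subunit of kinesin-2. This gave 38 genes of the 35424 features. They were sorted by textbook role into 13 mitotic kinesins, 15 transport kinesins and 10 with other or mixed roles. Of the 48 features that matched by name, 10 were antisense, divergent or pseudogene transcripts or had no protein-coding transcript listed, among them KIF5C and KIF12. KIF2B, KIF6 and KIF25 were not analysed here. CENPE, a mitotic kinesin with another kind of symbol, is given with the spindle proteins.

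The RNA was taken from THP-1, a human acute monocytic leukaemia cell line labelled as wild type, that was either left untreated (3 libraries) or treated with PMA (3 libraries), an activator of protein kinase C used to turn such cells into macrophage-like ones. Dose and duration of the PMA treatment are not given in the sources that were used, and the 2 groups share the cell line and no other labelled treatment. The study describes its RNA-seq replicates as independent experiments. Expression is given as FPKM, fragments scaled to transcript length and library size. Groups were compared by the quasi-likelihood test of edgeR on the estimated counts, over all 12947 genes with at least 1 FPKM in at least 3 libraries, and a gene was called higher or lower after PMA at a Benjamini-Hochberg adjusted p under 0.05.

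Estimated counts summed to between 61547700 and 88227830 per library, and tested kinesins had from 166 (KIF7) to 24750 (KIF5B) estimated counts in a library. Of 10 monocytic markers, 8 had a mean of at least 1 FPKM in both groups, with MPO and CD14 below it, and the 10 summed to between 210 and 221 FPKM in untreated and between 375 and 401 FPKM in PMA-treated cells. CSF1R, the receptor that macrophages need to survive, went from a mean of 3.79 to 124 FPKM and made up most of the rise in this sum. CD33 went from 13.6 to 9.87 FPKM and MPO from 0.872 to 0.0743 FPKM. ITGAM was level (2.15 against 2.10 FPKM), and the means of the remaining markers were higher after PMA. Of 10 markers of lymphoid, erythroid, epithelial and stromal cells, 6 were in the table, none reached a mean of 1 FPKM in either group, and they summed to 1.34 to 2.51 FPKM in untreated and 1.71 to 2.81 FPKM in PMA libraries. The SD of the log2 difference between PMA replicates 2 and 3 was 0.32, against 0.42 to 0.48 for other pairs within a group. In both groups the departure of replicate 1 from replicates 2 and 3 went with transcript GC content, as given below. Replicates 2 and 3 were not compared with each other in this way.

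Promoter sequences were examined for features that the grouping by role had not used. Promoters of genes expressed in late G2 and mitosis are known to carry a cell cycle genes homology region (CHR), bound by the MuvB complexes DREAM and B-MYB-MuvB, often a short way downstream of CCAAT boxes, bound by NF-Y. RefSeq windows on GRCh38.p14, from 250 bases before to 50 bases after a transcript start, were found for 26 of the 31 tested kinesins. They were searched on both strands for TTTGAA or the variant TTTAAA, termed CHR-like here, and for CCAAT. Other forms of the CHR were not searched for. The palindrome TTTAAA was counted once, and in the 26 windows no CHR-like match shared a base with a CCAAT match. Windows for KIF13B, KIFC2, KIFC3, KIF21B and KIF26B were not analysed here.

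A CHR-like match was present in 11 of 12 mitotic kinesin windows (91.7%), in 2 of 9 transport kinesin windows (22.2%) and in 0 of 5 windows of the other kinesins. The share was 15.3% of 9242 windows of tested genes and 24.3% of all 27305 windows. In the stretch from 100 bases before to 50 bases after the start, the same 11 mitotic kinesins had a match, as did 0 of 9 transport kinesins, 6.19% of tested genes and 11.3% of all windows. CCAAT was found in 10 of 12 mitotic windows (83.3%), 3 of 9 transport windows (33.3%) and 1 of 5 others (20.0%), against 37.3% of tested genes and 35.7% of all windows. Both motifs stood together in 75.0% of mitotic windows, 11.1% of transport windows and 6.34% of tested genes. Such matches are letters in a window, and binding was not measured at them here.

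**Figure D1:**
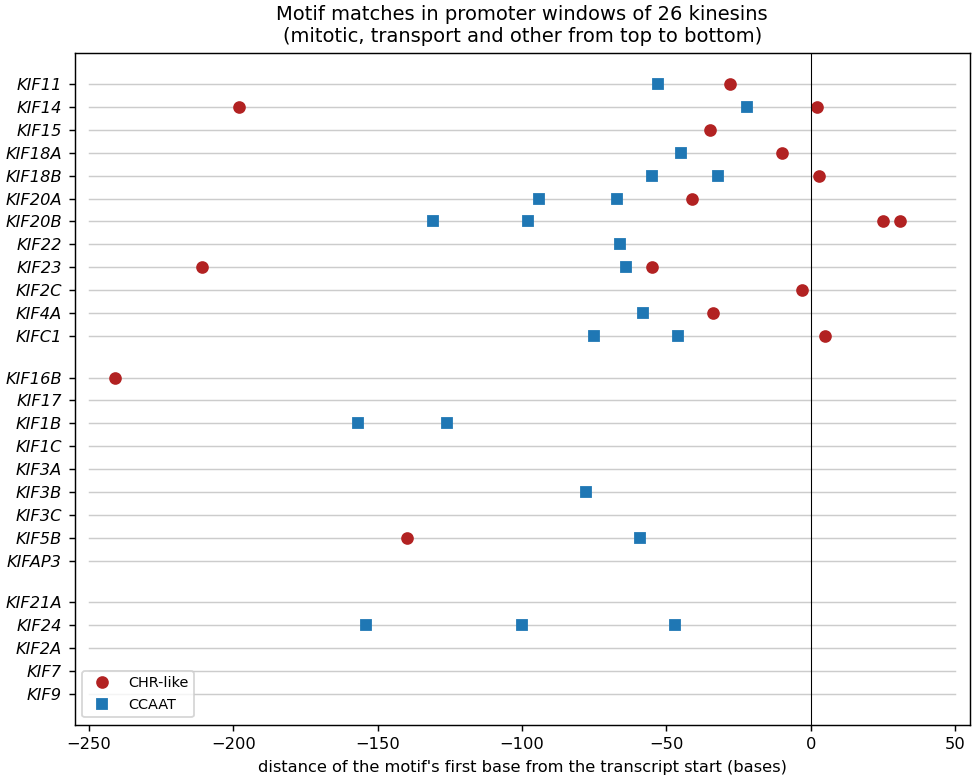
Motif matches in the RefSeq promoter windows of 26 tested kinesins, one line per gene, with the mitotic kinesins on top, transport kinesins in the middle and other kinesins at the bottom. The horizontal axis is the distance in bases of a match's first base from the transcript start. CHR-like matches (red circles) lie on 11 of the 12 mitotic lines, each with at least 1 match between positions -55 and 25, and on 2 of the 9 transport lines, both further upstream.

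A few of these promoters are shown because their genes span the responses of the mitotic group: KIF20A, KIF23 and KIFC1, which fell, KIF18A and KIF20B, the pair that did not pass the test, and KIF22, which fell and is the mitotic kinesin with no CHR-like match. Each run is 150 bases of the gene's strand, from 100 bases before to 50 bases after the RefSeq start, and capitals mark CHR-like and CCAAT matches on either strand (a reversed CHR-like match reads TTCAAA, and ATTGG is the reversed form of the other motif). Positions count from 1 at the first transcribed base, with -1 just before it.
KIF20A: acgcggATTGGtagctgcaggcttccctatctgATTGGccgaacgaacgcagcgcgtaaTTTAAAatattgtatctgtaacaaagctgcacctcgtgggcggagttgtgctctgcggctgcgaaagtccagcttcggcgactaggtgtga
KIF23: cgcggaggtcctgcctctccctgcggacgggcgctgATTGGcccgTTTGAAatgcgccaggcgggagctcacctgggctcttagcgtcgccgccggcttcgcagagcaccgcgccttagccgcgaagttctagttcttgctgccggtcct
KIFC1: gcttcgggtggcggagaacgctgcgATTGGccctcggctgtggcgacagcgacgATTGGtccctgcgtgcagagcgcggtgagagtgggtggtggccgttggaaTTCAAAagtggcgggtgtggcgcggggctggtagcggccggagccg
KIF18A: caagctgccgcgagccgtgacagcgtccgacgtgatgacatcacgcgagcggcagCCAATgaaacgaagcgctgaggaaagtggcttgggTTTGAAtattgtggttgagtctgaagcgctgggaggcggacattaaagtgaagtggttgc
KIF20B: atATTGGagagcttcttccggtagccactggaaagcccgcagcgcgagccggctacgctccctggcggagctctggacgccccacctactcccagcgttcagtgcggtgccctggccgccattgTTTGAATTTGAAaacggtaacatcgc
KIF22: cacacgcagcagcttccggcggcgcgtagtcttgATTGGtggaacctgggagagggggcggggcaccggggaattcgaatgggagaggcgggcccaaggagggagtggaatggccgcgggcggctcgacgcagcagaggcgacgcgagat
The stretches lie on GRCh38.p14 at chr5:138179012-138179161 (KIF20A, plus strand), chr15:69414249-69414398 (KIF23, plus strand), chr6:33391723-33391872 (KIFC1, plus strand), chr11:28108107-28108256 (KIF18A, minus strand), chr10:89701490-89701639 (KIF20B, plus strand) and chr16:29790651-29790800 (KIF22, plus strand). In KIF20A the CHR-like match began 41 bases before the start, with CCAAT matches in reverse orientation at -94 and -67. KIF18A likewise had CCAAT upstream of the CHR-like match, CCAAT at -45 and CHR-like at -10. Whether such matches bear on the RNA values was not tested. KIF20B had a pair of CHR-like matches side by side after the start, at 25 and 31. Of the motifs searched, KIF22 had CCAAT alone, at -66. Its run also holds TTCGAA, which is close to TTTGAA but was not searched for. The search thus does not show that KIF22 lacks a CHR.

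After PMA the mitotic kinesins were lower as a group and the transport kinesins were divided. Of 12 tested mitotic kinesins, 10 fell, 0 rose and 2 were not called, where 32.8% of all tested genes fell and 32.7% rose. The median log2 fold change was -0.60, against -0.01 over all tested genes. Of 12 tested transport kinesins, 6 rose, 2 fell and 4 were not called, with a median log2 fold change of 0.25. Of 7 tested kinesins with other roles, 2 rose, 1 fell and 4 were not called. Among the called ones, KIF26B and KIF7 reached the FPKM minimum only through the group with the higher values. The count for mitotic kinesins thus stood above the background share and the count of transport kinesins that rose (6 of 12) stood closer to it. All 3 PMA libraries lay below all 3 untreated libraries for 10 of the 12 mitotic kinesins (36.7% of all tested genes) and above them for 6 of the 12 transport kinesins (33.7% of all tested genes). In bulk RNA, fewer dividing cells and less of these RNAs per cell cannot be told apart.

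**Figure D2:**
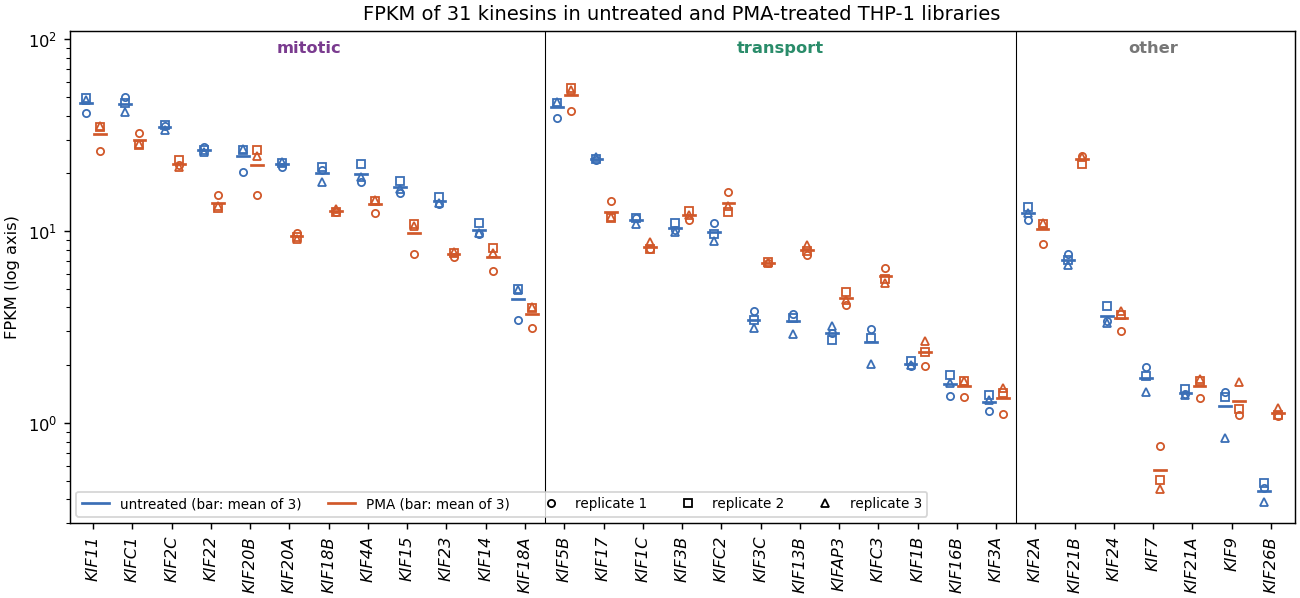
FPKM (log axis) of the 31 kinesins that reached 1 FPKM in at least 3 libraries, in 3 untreated (blue) and 3 PMA-treated (orange) libraries. Symbols are single libraries and bars are means of 3. The PMA points lie below the untreated points for 10 of 12 mitotic kinesins, and above them for 6 of 12 transport kinesins.

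Summed over all 13 members, mitotic kinesin FPKM was 278, 300 and 282 without PMA, against 171, 193 and 190 with PMA. Summed over all 15 members, transport kinesin FPKM was 113, 120 and 118 in untreated and 122, 132 and 132 in PMA libraries. The 2 groups were apart in both sums. The ratio of mitotic to transport FPKM was 2.45, 2.49 and 2.40 in untreated cells and 1.40, 1.46 and 1.44 in PMA-treated cells. Mitotic kinesins made up 66.1% to 66.6% of all kinesin FPKM before and 51.1% to 52.6% after PMA, so they stayed the larger share in every library. KIF11 was the most abundant kinesin in untreated cells (10.7% of kinesin FPKM), closely followed by KIFC1 (10.7%) and KIF5B (10.2%), whose library values overlapped. In PMA-treated cells KIF5B held 14.3%, KIF11 9.01% and KIFC1 8.35%.

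**Figure D3:**
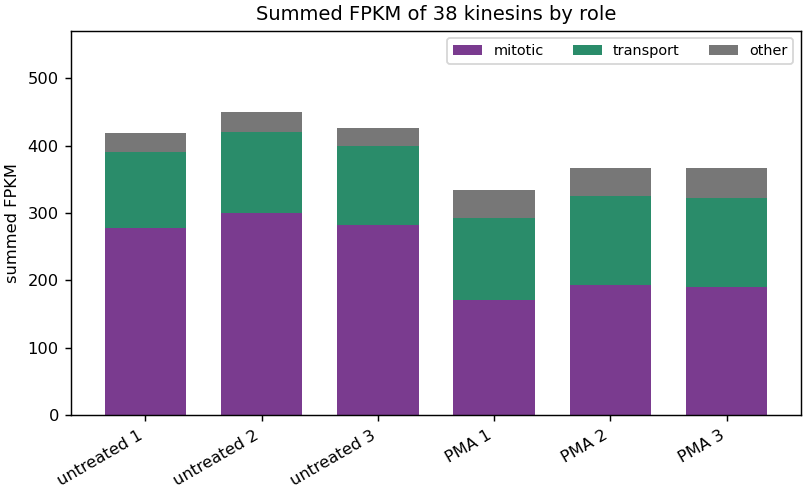
Summed FPKM of the 38 kinesins in each library, stacked by role, with the axis from 0. The mitotic part is 278 to 300 FPKM in untreated and 171 to 193 FPKM in PMA libraries, while the transport part is 113 to 120 and 122 to 132 FPKM.

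Among the kinesins of anaphase and cytokinesis, KIF20A changed most. KIF20A (ENSG00000112984, chr5:138178719-138187723 on hg38) brings the chromosomal passenger complex to the central spindle. It was at 21.7, 22.5 and 23.0 FPKM in untreated and 9.76, 9.34 and 9.07 FPKM in PMA libraries, with no overlap and a narrow spread in both groups. This was a 2.33-fold fall (log2 fold change -1.22, SE 0.08, edgeR adjusted p = 5.89e-06). KIF23, which forms the centralspindlin complex with RACGAP1, was at 13.8, 15.0 and 14.0 against 7.31, 7.66 and 7.79 FPKM. Its groups were likewise apart (log2 fold change -0.88, SE 0.07, adjusted p = 2.37e-05), and RACGAP1 itself fell by 0.55 on the log2 scale. KIF4A, a chromokinesin that works with PRC1 on the central spindle, was at 18.1, 22.3 and 19.1 against 12.4, 14.3 and 14.6 FPKM (log2 fold change -0.49, SE 0.10), and PRC1 fell by 0.91. KIF14, which recruits citron kinase to the midbody, was at 9.61, 11.0 and 9.75 against 6.16, 8.12 and 7.66 FPKM. Its fall was the smallest called in the mitotic group (log2 fold change -0.43, SE 0.11, adjusted p = 0.0102), and without untreated replicate 2 it did not pass the test (adjusted p = 0.0532). KIF20A shares 3.43% of its exonic bases with BRD8 and 1.92% with CDC23 on the opposite strand, and KIF4A has a near-identical copy, KIF4B, which was at 0.0813 to 0.327 FPKM, so how reads were divided between that pair is uncertain.

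KIF20B, another kinesin of cytokinesis, did not follow them. It was at 20.4, 26.5 and 26.8 FPKM in untreated and 15.4, 26.5 and 24.5 FPKM in PMA libraries. Replicate 1 was the lowest of its group on both sides, and the groups overlapped (log2 fold change -0.12, 95% interval -0.58 to 0.35, adjusted p = 0.626). The interval is wide enough to hold a fall of the size seen for KIF11 as well as a small rise. With both replicates numbered 1 left out, a setting added after seeing the data, the log2 fold change was -0.03 (SE 0.07).

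The tested motors that build the spindle also fell. KIF11 (Eg5), the plus-end motor that pushes spindle poles apart, was at 41.1, 49.5 and 48.4 against 26.1, 34.8 and 35.3 FPKM, with the groups apart (log2 fold change -0.50, SE 0.13, adjusted p = 0.0108). KIF15, which can back up KIF11, was at 15.8, 18.3 and 16.6 against 7.61, 10.9 and 10.6 FPKM (log2 fold change -0.76, SE 0.14). KIFC1, a minus-end motor that focuses spindle poles, was at 50.2, 46.3 and 41.7 against 32.6, 28.1 and 28.4 FPKM (log2 fold change -0.60, SE 0.09). For all 3 motors every PMA library lay below every untreated library, as for 36.7% of all tested genes.

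The motors that act on chromosomes and microtubule ends were less alike. KIF22 (Kid), a chromokinesin that pushes chromosome arms away from the poles, was at 27.4, 26.4 and 25.9 against 15.4, 13.2 and 13.5 FPKM (log2 fold change -0.89, SE 0.08, adjusted p = 4.49e-05). KIF2C (MCAK), which takes apart microtubules at centromeres, was at 35.1, 35.7 and 33.5 against 22.0, 23.4 and 21.5 FPKM (log2 fold change -0.61, SE 0.07). KIF18B, which acts on the plus ends of astral microtubules, was at 20.9, 21.5 and 17.9 against 12.5, 12.6 and 13.1 FPKM (log2 fold change -0.62, SE 0.08). These 3 fell with no overlap between groups, where 36.7% of all tested genes had every PMA library below every untreated one. KIF18A, which dampens chromosome oscillations at the metaphase plate, was the other mitotic kinesin that was not called. It was at 3.44, 4.97 and 4.95 against 3.13, 3.97 and 4.01 FPKM, with PMA replicates 2 and 3 between untreated replicates 1 and 2 (log2 fold change -0.23, 95% interval -0.64 to 0.17, adjusted p = 0.268). With both replicates numbered 1 left out it was called (log2 fold change -0.28, adjusted p = 0.0426).

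**Figure D4:**
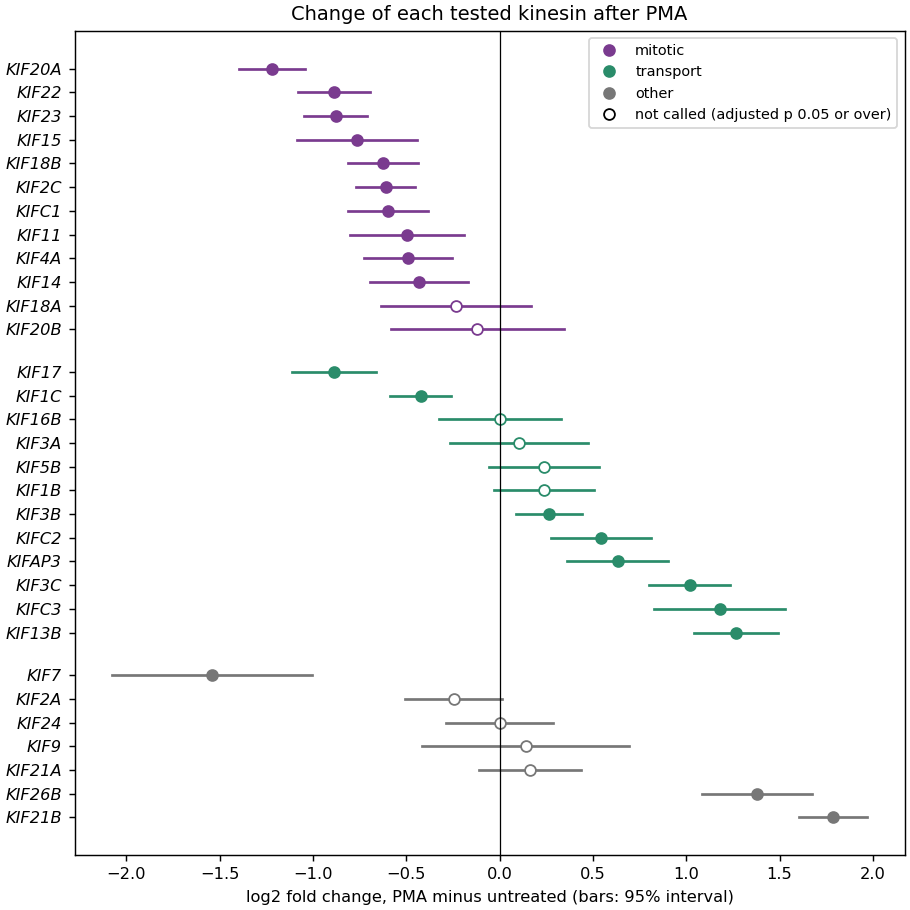
Log2 fold change (PMA minus untreated) of the 31 tested kinesins with 95% intervals from the edgeR fit, by role and ordered by size. Filled points passed an adjusted p of 0.05 and open points did not. All 12 mitotic points lie left of 0, 10 of them filled, while the transport points run from -0.89 (KIF17) to 1.27 (KIF13B).

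KIF20B and KIF18A were lowest in replicate 1 of both groups. Over the 31 tested kinesins, transcript GC content and the departure of replicate 1 from the mean of replicates 2 and 3, on the log2(FPKM + 1) scale, had a Pearson r of 0.83 in the untreated and 0.87 in the PMA group, against 0.35 and 0.45 over 12945 tested genes. The points share their libraries, so these are descriptions. KIF20B, with the lowest GC (34.3%), was 0.37 lower in untreated replicate 1 and 0.69 lower in PMA replicate 1. KIFC2, with the highest GC (68.1%), was 0.22 and 0.28 higher. Of the mitotic kinesins that fell, KIF11 (39.7% GC) was 0.24 and 0.41 lower in replicate 1 and KIFC1 (57.5% GC) was 0.19 and 0.20 higher. Over the 12 mitotic kinesins, GC and the log2 fold change had r = -0.50 with all libraries and r = -0.52 with both replicates numbered 1 left out. The part of GC content in these differences was not tested.

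**Figure D5:**
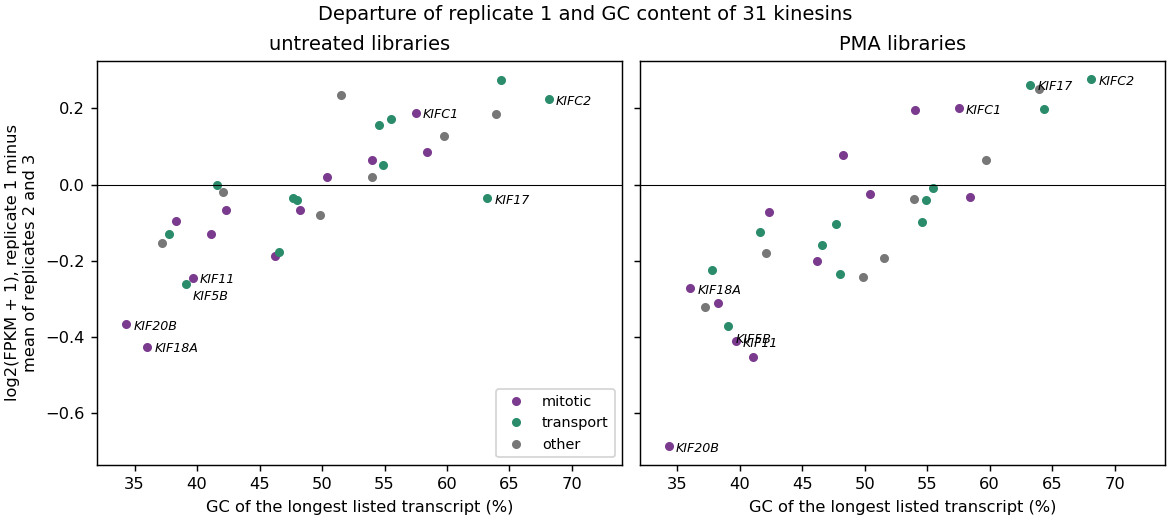
Departure of replicate 1 from the mean of replicates 2 and 3, in log2(FPKM + 1), against the GC content (percent) of the longest listed transcript, for 31 kinesins in untreated (left) and PMA libraries (right). Points rise from left to right in both panels, from KIF20B at 34.3% GC to KIFC2 at 68.1% GC (r = 0.83 and 0.87).

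The most abundant transport kinesin, KIF5B (ENSG00000170759, chr10:32009015-32056425 on hg38), is the widely expressed heavy chain of kinesin-1, which moves lysosomes and mitochondria outward. It was at 39.0, 46.6 and 47.3 FPKM in untreated and 42.5, 55.9 and 54.6 FPKM in PMA libraries. The groups overlapped through PMA replicate 1, and KIF5B was not called (log2 fold change 0.24, 95% interval -0.06 to 0.53, adjusted p = 0.137). Without PMA replicate 1 it was called (log2 fold change 0.35, adjusted p = 0.016). With all libraries kept, it was called among genes at a mean of 5 FPKM or more (0.36, adjusted p = 0.0394). That setting shifted the log2 fold change of all genes by a median of 0.12. KIF5B was not called in 11 of 15 alternatives, among them DESeq2 (0.11, adjusted p = 0.558) and edgeR with no FPKM filter (0.09, adjusted p = 0.629).

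Kinesin-2, a heterotrimer of 2 motor subunits and KIFAP3 that is known for late endosome and ciliary transport, changed in part of its subunits. KIF3C was at 3.82, 3.44 and 3.11 against 6.81, 6.91 and 6.82 FPKM, a 2.03-fold rise (log2 fold change 1.02, SE 0.09, adjusted p = 4.12e-05). KIFAP3 was at 2.93, 2.70 and 3.19 against 4.14, 4.83 and 4.39 FPKM (log2 fold change 0.63, SE 0.12). Both had groups that were apart, whereas KIF3A was at 1.16, 1.41 and 1.31 against 1.12, 1.43 and 1.51 FPKM and did not pass the test (log2 fold change 0.10, 95% interval -0.27 to 0.47). KIF3B, the most abundant subunit, was at 10.1, 11.0 and 9.87 against 11.5, 12.7 and 12.1 FPKM. Its groups were apart by a small margin (log2 fold change 0.26, SE 0.08, adjusted p = 0.0151), and the call was lost without PMA replicate 2 (adjusted p = 0.0718). KIF17, a kinesin-2 that works as a homodimer and carries receptors in neuronal dendrites, went the other way. It was at 23.4, 23.8 and 24.3 against 14.3, 11.7 and 11.8 FPKM, a 1.85-fold fall with groups far apart (log2 fold change -0.89, SE 0.10, adjusted p = 0.000106).

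In the kinesin-3 family, KIF13B (ENSG00000197892), which binds phosphoinositides and the scaffold DLG1, had the largest rise among transport kinesins. It was at 3.70, 3.53 and 2.92 against 7.53, 7.87 and 8.42 FPKM (2.41-fold, log2 fold change 1.27, SE 0.10, adjusted p = 1.68e-05). KIF1C, which carries dense-core vesicles and integrins, fell from 11.7, 11.6 and 10.8 to 8.11, 8.03 and 8.73 FPKM (log2 fold change -0.42, SE 0.07). Both had groups that did not overlap. KIF1B, a carrier of mitochondria and synaptic vesicle precursors, was at 1.98, 2.11 and 2.01 against 1.99, 2.35 and 2.69 FPKM and was not called (adjusted p = 0.105), with a call without PMA replicate 1 (log2 fold change 0.34, adjusted p = 0.00858). KIF16B, which binds early endosomes, was at 1.38 to 1.77 against 1.37 to 1.65 FPKM (log2 fold change 0.00, 95% interval -0.32 to 0.33). The 4 tested members of this family gave 1 rise, 1 fall and 2 genes that did not pass the test. Over all tested genes, 32.7% rose and 32.8% fell.

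Of the minus-end motors outside the spindle, KIFC3, known from transport to the apical surface and from adherens junctions in epithelial cells, was at 3.09, 2.78 and 2.02 against 6.44, 5.60 and 5.39 FPKM. This was a 2.27-fold rise with groups apart (log2 fold change 1.18, SE 0.15, adjusted p = 0.000254). KIFC2, described mainly in neurons, was at 11.0, 9.66 and 8.92 against 16.0, 12.6 and 13.5 FPKM (log2 fold change 0.55, SE 0.12, adjusted p = 0.00368). FOXH1 covers 17.8% of the exonic bases of KIFC2 on the opposite strand, and was at no more than 0.352 FPKM.

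KIF21B had the largest rise of the 31 tested kinesins. KIF21B (ENSG00000116852, chr1:200969390-201023714 on hg38) walks to microtubule plus ends and limits their growth, and is known from neurons and lymphocytes. It was at 7.55, 7.03 and 6.64 FPKM in untreated and 24.5, 22.4 and 24.4 FPKM in PMA libraries, with every PMA library more than the sum of any 2 untreated ones. The rise was 3.45-fold (log2 fold change 1.79, SE 0.08, adjusted p = 9.33e-07) and took KIF21B from rank 18 to rank 4 among the kinesins by FPKM. Its relative KIF21A was at 1.41, 1.50 and 1.39 against 1.36, 1.66 and 1.69 FPKM and did not pass the test (log2 fold change 0.16, 95% interval -0.11 to 0.43). KIF26B, which is thought to lack motor activity and acts in Wnt5a-Ror signalling, was at 0.457, 0.487 and 0.387 against 1.09, 1.09 and 1.20 FPKM (log2 fold change 1.38, SE 0.13). It reached the FPKM minimum through the PMA libraries alone.

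KIF7, a regulator of Hedgehog signalling at the tip of the primary cilium, had the largest fall of the 31 tested kinesins, from 1.95, 1.75 and 1.44 to 0.758, 0.505 and 0.452 FPKM (log2 fold change -1.54, SE 0.23, adjusted p = 0.000581). It reached the minimum through the untreated libraries alone. TICRR, a replication initiation factor that overlaps 10.8% of its exonic bases on the opposite strand, was at 8.50 to 8.70 against 5.82 to 6.73 FPKM, and whether counting used the strand is not stated in the sources used here. KIF2A, a microtubule depolymerase of spindle poles and neurons, was at 11.5, 13.3 and 12.4 against 8.60, 10.9 and 11.1 FPKM. All its PMA values lay below its untreated values, but it did not pass the test (log2 fold change -0.25, 95% interval -0.50 to 0.01, adjusted p = 0.0846). DIMT1 shares 18.7% of the exonic bases of KIF2A on the opposite strand and fell by 0.75 on the log2 scale. KIF24, which restrains cilium formation at the mother centriole, was at 3.31 to 4.05 against 3.01 to 3.83 FPKM (log2 fold change 0.00, 95% interval -0.29 to 0.29). KIF9, found in the sperm flagellum and in macrophage podosomes, was at 0.833 to 1.45 against 1.10 to 1.64 FPKM (log2 fold change 0.14, 95% interval -0.42 to 0.70). On the opposite strand, UBAP1 (at most 25.3 FPKM) shares 2.22% of the exonic bases of KIF24. KIF9 likewise shares 14.8% with KIF9-AS1 (at most 0.252 FPKM) and 3.03% with KLHL18 (at most 8.14 FPKM).

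The remaining 7 kinesins did not reach the FPKM minimum. They were KIF1A and KIF5A, mainly neuronal motors, KIF13A, an endosome motor, the KIF4A copy KIF4B, and KIF19, KIF26A and KIF27. KIF27, a relative of KIF7, came nearest, at 0.461 to 0.650 FPKM in untreated and 0.665 to 0.904 FPKM in PMA libraries, and KIF13A was at 0.0289 to 0.116 against 0.121 to 0.269 FPKM. For both, all PMA libraries were above all untreated ones, as for 33.7% of all tested genes. KIF1A reached 0.175 FPKM in untreated replicate 3 and at most 0.0073 FPKM elsewhere, KIF5A and KIF26A stayed at or under 0.0302 FPKM, and KIF19 was at 0 in every library except PMA replicate 2 (0.0312 FPKM). In a fit with no FPKM filter none of the 7 was called (adjusted p from 0.0762 to 0.442).

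Genes that work with the kinesins moved in the following way. The shares of all tested genes to set beside the counts that follow are 32.8% lower and 32.7% higher. Of 20 spindle and cytokinesis proteins, 16 fell, 1 rose and 3 were not called, with a median log2 fold change of -0.72. The largest falls were those of KNSTRN, a kinetochore and spindle protein (log2 fold change -1.36, SE 0.08), and PLK1, the mitotic kinase that acts with KIF20A (-1.20, SE 0.08), and the one rise was that of NUMA1, a spindle pole and nuclear matrix protein (0.62, SE 0.07). CENPE, the kinesin that brings chromosomes to the metaphase plate, was at 10.2, 12.6 and 12.1 against 5.76, 9.67 and 9.35 FPKM. Its groups were apart, but the test missed the threshold (log2 fold change -0.46, SE 0.19, adjusted p = 0.0624). Of 5 proliferation markers, PCNA (-0.90), CCNB1 (-0.86), TOP2A (-0.61) and CDK1 (-0.52) fell in log2 fold change. MKI67, a proliferation marker with a large nuclear protein, was at 28.8, 31.2 and 33.2 against 25.6, 31.8 and 32.8 FPKM, and its groups overlapped (log2 fold change -0.01, adjusted p = 0.92). The 5 markers summed to 357 to 397 FPKM in untreated and 222 to 234 FPKM in PMA libraries, and the part of cell division in the kinesin values was not tested.

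Of 18 light chains, adaptors and small GTPases that link kinesins to cargo, 16 were tested, of which 9 rose, 2 fell and 5 were not called (median log2 fold change 0.33), where 32.7% of all tested genes rose and 32.8% fell. MAPK8IP3 (JIP3), a kinesin-1 scaffold, rose most (log2 fold change 1.33, SE 0.13), followed by its relative SPAG9 (JIP4) (0.89, SE 0.08). RHOT2, a mitochondrial GTPase that anchors kinesin adaptors, fell (-0.89, SE 0.15), as did FEZ2 (-0.32, SE 0.11). Of 24 subunits and adaptors of dynein and dynactin, the machinery that moves cargo to the minus end, 23 were tested, of which 6 rose, 3 fell and 14 were not called (median log2 fold change -0.02), with both shares below those of all tested genes (32.7% higher and 32.8% lower). DYNLT3 (1.06) and BICD1 (1.04) rose most and DCTN2 (-0.42) and DCTN1 (-0.39) fell most. BICD1 reached the FPKM minimum through the PMA libraries alone. Of 14 tubulins, 11 were tested, of which 8 fell, 1 rose and 2 were not called (median log2 fold change -0.76), where 32.8% of all tested genes fell and 32.7% rose. TUBA4A (-2.30) and TUBB4A (-1.56) fell most and TUBB3 rose (1.27), while reads shared between near-identical tubulin genes make the single values uncertain. TUBB4A reached the FPKM minimum through the untreated libraries alone, and TUBB3 through the PMA libraries alone.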

How the data were processed

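RNA-seq of 6 THP-1 libraries (3 untreated, 3 PMA-treated) was analysed. The authors deposited FPKM values and estimated counts per gene in 1 table on hg38, with DESeq2 named in the submitters' processing notes. Aligner, counting tool and strand setting are not given in the sources that were used. Of features sharing a symbol, that with the highest mean was kept (35042 left). The deposited estimated counts, rounded to whole numbers, were tested with edgeR 4.0.16 in R 4.3.3 (TMM, treatment only, Benjamini-Hochberg adjustment over 12947 genes). The SE of a log2 fold change is its size over the square root of F and is approximate. Alternatives used DESeq2 1.42.0 and limma 3.58.1. The test was tested on simulated data, with 95 of 100 genes changed 2-fold recovered. That simulation changed 200 genes, far fewer than the 8485 called here, and gave all genes the same dispersion. The recovery given holds for 2-fold changes and does not cover smaller ones. Kinesins, roles and accompanying lists were chosen with earlier results of these data known. All kinesins are named, with the 2 largest called rises and falls of each accompanying list and CENPE. The deposited FPKM values served for levels, sums and the minimum of 1 FPKM. Intervals are at 95%. Identifiers of all 38 kinesins are in GENCODE v44, which gave GC content and overlaps, and promoters are RefSeq's on GRCh38.p14.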

Additional observations from a re-analysis of the deposited data

How the results depend on the processing

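Under 15 alternatives, 25 of the 31 tested kinesins kept their call wherever they could be fitted. No call reversed, and of 454 comparisons 5 lost and 12 gained a call. Among kinesins that were never called, the log2 fold changes of KIF20B, KIF16B, KIF24, KIF3A and KIF9 changed sign between settings. Mitotic kinesins that fell numbered 10 in the fit of reference, 9 without untreated replicate 2 and 11 with both replicates numbered 1 left out. Transport kinesins that rose numbered 6, and from 5 (DESeq2, no filter, a mean of 5 FPKM or more, PMA replicates 2 and 3 added together, without PMA replicate 2) to 8 (replicate block, without PMA replicate 1, both replicates numbered 1 left out) across alternatives. The median log2 fold change of mitotic kinesins (-0.60) was -0.73 with DESeq2, -0.75 with no FPKM filter, -0.49 at a mean of 5 FPKM or more and -0.52 with limma on log2(FPKM + 5). That of transport kinesins (0.25) was 0.12, 0.10 and 0.39 under the first 3 of these, which shifted the log2 fold change of all genes by a median of -0.13, -0.15 and 0.12. Relative to the median of all genes, the mitotic median ran from -0.62 to -0.46 and the transport median from 0.19 to 0.41. At a mean of 5 FPKM or more, the mitotic KIF18A and the transport kinesins KIF16B, KIF1B, KIF3A, KIFAP3 and KIFC3 were not tested. Counts and medians under that setting cover the remaining members. Other kinesins that fell numbered 1 and became 2 (with KIF2A added) by DESeq2, with no filter, with the replicate block and with both replicates numbered 1 left out, and 0 at a mean of 5 FPKM or more, where those that rose numbered 1 in place of 2 and all genes called numbered 4890 in place of 8485, since fewer genes were tested.

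KIF3B was lost by DESeq2 (log2 fold change 0.14, adjusted p = 0.285), with no filter (0.12, 0.294), with PMA replicates 2 and 3 added together (0.25, 0.0539) and without PMA replicate 2. KIF5B was called at a mean of 5 FPKM or more (0.36, 0.0394), with the replicate block (0.23, 0.0106), with both replicates numbered 1 left out (0.27, 0.00599) and without PMA replicate 1. It was not called in the other 11 of 15 alternatives. KIF1B was called with the replicate block (0.23, 0.043) and with both replicates numbered 1 left out (0.32, 0.0122). The deviations of same-numbered libraries had correlations of 0.38, 0.04 and 0.03, and PMA replicate 2 correlated best with untreated replicate 3, so the numbers were not taken to pair the samples. Leaving out the replicates numbered 1 was chosen after seeing the data.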
